A study of Mus musculus with 9 samples.

Results

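The genes described here were the collagen chain genes measured in Panc02 cells, an established mouse line of pancreatic ductal adenocarcinoma, namely every gene whose symbol is Col, a number, the letter a and a number. The rule found 44 genes among 49671 in the count table, of which 11 encode chains of the fibrillar types, 6 encode chains of basement membrane type IV and 27 encode chains of other types. Poly(A) RNA was sequenced in 9 bulk libraries, 3 per group. KO_1E7 was a single clone whose genotype label is a knockout of VPAC2. This receptor, encoded by Vipr2, binds the neuropeptides VIP and PACAP. CRISPR_1G2 was a single clone labelled CRISPR-wild type, although the series' design text speaks of both clones as derived from the knockout. The parental group was Panc02 labelled wild type. All 3 groups were untreated, were grown in DMEM with 10% fetal bovine serum and share the pancreas tissue label. With 1 clone per edited group, what belongs to a clone and what belongs to the loss of VPAC2 cannot be told apart, and since no label says whether the replicates were separate cultures, a p-value here speaks only to the spread among the sequenced samples, which may be technical.

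Collagens are secreted proteins in which 3 chains wind into a triple helix. Fibrillar chains (types I, II, III, V, XI, XXIV and XXVII) form the banded fibrils of connective tissue, and in pancreatic tumours most of these fibrils come from fibroblasts of the stroma. Type IV chains form the sheet-like network of the basement membrane on which epithelium rests. The remaining chains build beaded filaments (type VI), anchoring fibrils (type VII), short-chain hexagonal networks (types VIII and X), molecules on the surface of fibrils, proteoglycan-bearing chains of the basement membrane zone (types XV and XVIII) and chains that span the cell membrane.

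The libraries held between 27898705 and 51878289 counts assigned to genes, so 3 counts corresponded to 0.0568 to 0.109 CPM, the counts scaled to a common library size with TMM factors. Vipr2 itself had 1, 2 and 1 counts in KO_1E7, 1, 13 and 12 in CRISPR_1G2 and 6, 3 and 12 in parental libraries, too few to check the genotype. The column header of library 3 in each group holds the word NSG, which no label explains, and these are called NSG libraries here. The headers of the other 6 libraries hold number strings that read like dates, which differ within each group. KO_1E7 1 shares its string with parental 1 and CRISPR_1G2 1 shares its string with parental 2, while KO_1E7 2 and CRISPR_1G2 2 each have a string of their own. NSG libraries stood apart within CRISPR_1G2 and parental cells, and in parental 3 genes related to ribosomal RNA took 18% of the gene counts, against 0.736 to 1.44% in the other 8 libraries. Of the marker lists, keratins of simple epithelium (Krt8, Krt18, Krt19) and the duct factor Sox9 were expressed in every library, while Cftr was at or near 0. Among 10 fibroblast and mesenchyme markers, Dcn, Lum, Thy1, Fap, Dpt and Pdpn stayed under 1 CPM in all 9 libraries, while Vim, Pdgfrb, Pdgfra and Acta2 were detected. All 6 endothelial markers stayed under 1 CPM in every library.

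Sequence at the start of the gene is shown for 5 chains. Col4a1 and Col4a2 are included because they are transcribed head to head from 1 shared region and had nearly equal levels, Col8a1 and Col7a1 because they had the smallest adjusted p among the well expressed chains that differed between the clones, and Col1a2 because its level came apart from that of its partner Col1a1. Each is RefSeq's window of 300 bases on GRCm38.p6, 250 before and 50 after its annotated start, and 35 of the 44 chain genes had one. In the Col4a1 (chr8:11312777-11313076, minus strand) and Col4a2 (chr8:11312555-11312854, plus strand) windows, capitals mark the 78 bases that both windows hold, each read on its own strand. In the Col8a1 (chr16:57754688-57754987, minus strand), Col7a1 (chr9:108953336-108953635, plus strand) and Col1a2 (chr6:4505368-4505667, plus strand) windows, capitals mark matches on either strand to the GC box, which reads GGGCGG, or to the box named CCAAT after its letters.
Col4a1: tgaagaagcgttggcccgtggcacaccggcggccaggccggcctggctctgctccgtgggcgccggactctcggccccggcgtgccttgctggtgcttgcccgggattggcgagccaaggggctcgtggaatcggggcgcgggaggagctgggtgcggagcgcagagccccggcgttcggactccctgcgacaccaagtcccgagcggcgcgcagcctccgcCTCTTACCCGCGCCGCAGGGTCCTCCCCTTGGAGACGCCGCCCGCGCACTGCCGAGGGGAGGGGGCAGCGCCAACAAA
Col4a2: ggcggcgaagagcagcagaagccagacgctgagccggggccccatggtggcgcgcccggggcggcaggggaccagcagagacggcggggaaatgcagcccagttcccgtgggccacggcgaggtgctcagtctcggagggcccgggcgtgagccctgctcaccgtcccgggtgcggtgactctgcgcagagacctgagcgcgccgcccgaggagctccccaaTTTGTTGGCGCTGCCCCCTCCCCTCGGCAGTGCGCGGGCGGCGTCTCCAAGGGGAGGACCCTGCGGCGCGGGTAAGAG
Col8a1: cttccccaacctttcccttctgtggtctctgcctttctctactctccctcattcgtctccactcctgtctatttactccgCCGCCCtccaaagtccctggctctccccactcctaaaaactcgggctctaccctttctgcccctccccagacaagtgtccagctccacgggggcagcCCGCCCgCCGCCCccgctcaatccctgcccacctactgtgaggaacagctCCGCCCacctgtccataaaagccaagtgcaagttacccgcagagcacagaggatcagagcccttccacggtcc
Col7a1: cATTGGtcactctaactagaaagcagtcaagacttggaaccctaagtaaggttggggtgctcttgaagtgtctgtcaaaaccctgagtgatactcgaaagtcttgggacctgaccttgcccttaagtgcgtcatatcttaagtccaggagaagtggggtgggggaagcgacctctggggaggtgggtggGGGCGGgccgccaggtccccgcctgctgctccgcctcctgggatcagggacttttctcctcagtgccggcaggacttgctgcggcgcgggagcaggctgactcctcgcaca
Col1a2: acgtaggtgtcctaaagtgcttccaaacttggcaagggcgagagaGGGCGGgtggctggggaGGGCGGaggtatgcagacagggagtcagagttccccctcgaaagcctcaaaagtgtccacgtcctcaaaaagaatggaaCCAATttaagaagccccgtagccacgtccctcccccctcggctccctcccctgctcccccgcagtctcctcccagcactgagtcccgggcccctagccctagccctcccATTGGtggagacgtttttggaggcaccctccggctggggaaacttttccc

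The GC box was matched 4 times in the Col8a1 window, once in Col7a1, 2 times in Col1a2, once in Col4a1 and 3 times in Col4a2. Over all 32817 distinct windows in the table, 35.6% held at least 1 match, and of the 38 windows of collagen chain genes 60.5% did. CCAAT was matched 2 times in the Col1a2 window, once in Col7a1, Col4a1 and Col4a2 and not in Col8a1. It was held by 37.4% of all windows and 34.2% of the collagen windows. Neither TATAAA (13.6% of all and 13.2% of collagen windows) nor TGANTCA (AP-1 site, 7.81% and 2.63%) was found in these 5 windows. That says only that those letters are absent there. None of the 4 motifs contains another.

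Basement membrane chains made up much of the collagen message in all 3 groups, and fibrillar chains little of it. Levels of different genes are given as CPM per kilobase of gene model, the total exon length in the files. On this scale type IV chains held 38.8 to 54.1% of the summed level of all 44 chains in KO_1E7, 37.8 to 57.3% in CRISPR_1G2 and 40.7 to 58.5% in parental libraries. Fibrillar chains held 4.81 to 7.18% in KO_1E7, 5.42 to 17.1% in CRISPR_1G2 and 5.97 to 13.1% in parental libraries. The largest fibrillar shares were those of CRISPR_1G2 3 and parental 3, and the group ranges overlapped for both families.

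**Figure D1:**
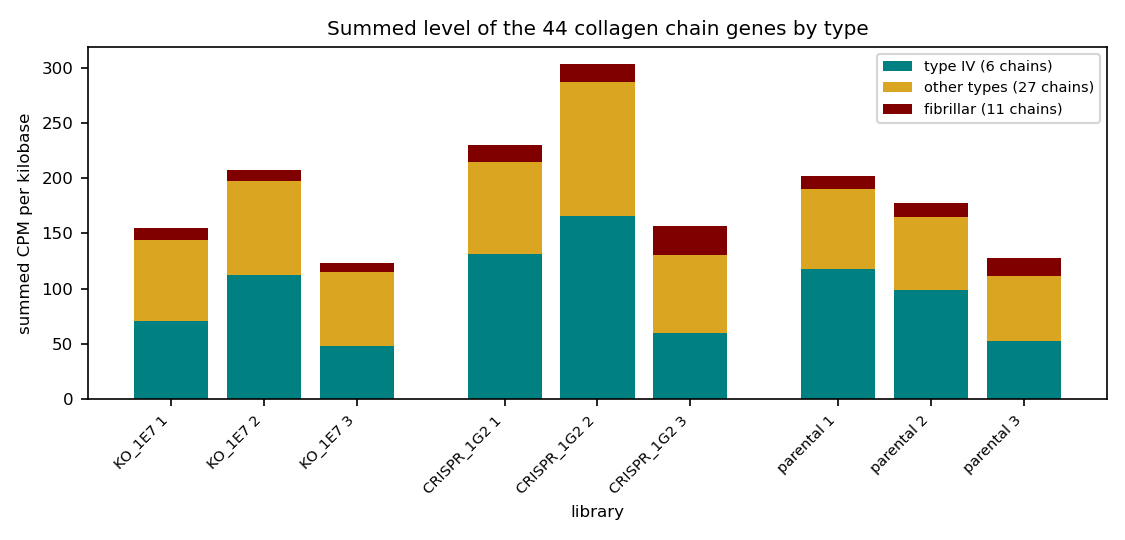
Summed level of the 44 collagen chain genes in each of the 9 libraries (vertical axis, CPM per kilobase of gene model), divided into type IV, other and fibrillar chains. The tallest bar is CRISPR_1G2 2 at 304 and the shortest is KO_1E7 3 at 123, and library 3 has the shortest bar in each group.

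Only 19 of the 44 chains averaged at least 1 CPM over the 9 libraries, and 29 passed the filter on low counts and were tested. The 15 chains below the filter had between 2 and 86 counts in all 9 libraries together, and Col9a1, Col13a1 and Col19a1 never exceeded 2 counts in a library. Missing from the tested set were Col2a1 and Col27a1 of the fibrillar chains, Col4a3 of type IV, and 12 others, among them all of Col6a4, Col6a5 and Col6a6. Col18a1, Col4a1 and Col4a2 had the highest mean levels per kilobase, at 45.7, 45.7 and 41.7 CPM per kilobase, and differed by less than the spread between libraries. Together these 3 chains held 48.3 to 66.3% of the summed collagen level in KO_1E7, 65.0 to 80.2% in CRISPR_1G2 and 72.8 to 82.2% in parental libraries. Next came Col6a1 at 18.2, Col5a1 at 10.6 and Col4a5 at 7.49 CPM per kilobase, the highest fibrillar chain being Col5a1 and not the type I or III chains.

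**Figure D2:**
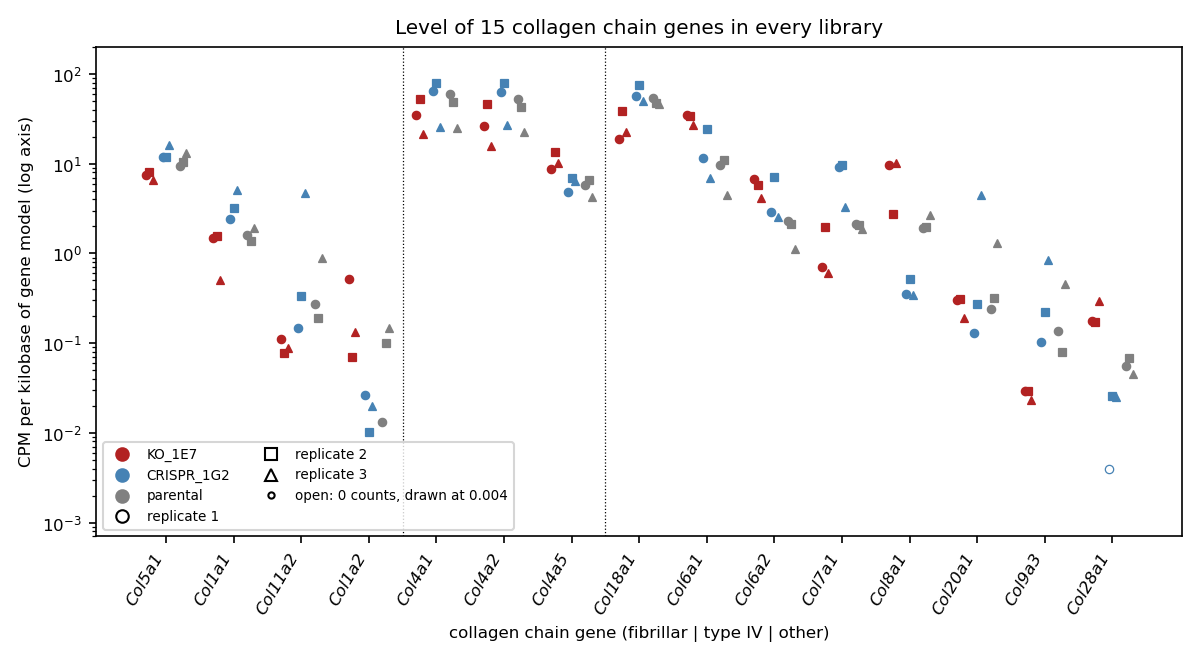
Level of 15 collagen chain genes in every library (vertical axis, CPM per kilobase of gene model on a log axis), by group colour and replicate symbol, with fibrillar chains left, type IV chains in the middle and other chains right. Col18a1, Col4a1 and Col4a2 lie highest, and Col8a1, Col7a1, Col1a2 and Col28a1 show KO_1E7 and CRISPR_1G2 apart.

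Between the clones, 8 of the 29 tested chains (27.6%) passed the test in edgeR's quasi-likelihood fit at an adjusted p under 0.05, where 12.7% of all 15766 genes tested did. Col8a1, Col28a1 and Col1a2 were higher in KO_1E7 than in CRISPR_1G2 (higher among all genes, 5.71%). Col7a1, Col5a1, Col18a1, Col9a3 and Col1a1 were lower (lower among all genes, 7.03%). The median log2 fold change of the 29 chains was -0.37, beside -0.03 over all genes tested. By family, 1 fibrillar chain was higher and 2 were lower of 9 tested, 0 of 5 type IV chains passed (1 at an unadjusted p under 0.05, and 1, Col4a5, in DESeq2), and 2 of 15 others were higher and 3 lower. The libraries of KO_1E7 and CRISPR_1G2 did not overlap for 13 of 29 chains (44.8%), beside 38.6% of all genes, which is close to the background. DESeq2 called 12 of 35 chains (34.3%, beside 15.7% of all genes), among them all 8. The edgeR count rested on single libraries: it was 2 without KO_1E7 1, 1 without KO_1E7 3 and 5 without CRISPR_1G2 2 or CRISPR_1G2 3. Over all genes, 2010 with all libraries became 553, 453, 949 and 2007 in these fits, in the same order. With all 3 NSG libraries left out the count of chains was again 8, 6 of them shared, with Col18a1 and Col1a2 lost. With a term for the header text in the fit, added after seeing the data, it was 10 chains, 7 of them shared, with Col1a2 lost (adjusted p = 0.141, edgeR). Over all genes the count was 3111 without the NSG libraries and 2255 with the header term. The clones share only the NSG header, and between these 2 libraries KO_1E7 3 over CRISPR_1G2 3 gave log2 CPM ratios of 4.88 for Col8a1, 3.55 for Col28a1, 2.75 for Col1a2, -2.44 for Col7a1, -1.31 for Col5a1, -1.14 for Col18a1, -5.18 for Col9a3 and -3.33 for Col1a1. All 8 had the sign of the fold change over all libraries. That sign was fixed in advance, because the libraries of the clones did not overlap for any of these 8 chains.

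Among the fibrillar chains, Col5a1 (chr2:27886425-28039514, plus strand), whose product starts and limits the growth of collagen fibrils, was the most abundant. It had 63.7, 68.4 and 55.9 CPM in KO_1E7, 102, 100.1 and 138 CPM in CRISPR_1G2 and 79.9, 89.5 and 113 CPM in parental libraries. All KO_1E7 libraries lay below all CRISPR_1G2 and all parental libraries. The log2 fold change of KO_1E7 over CRISPR_1G2 was -0.86 ± 0.18 (SE, n = 3 each, adjusted p = 0.0199, edgeR), and that of KO_1E7 over parental cells was -0.59 ± 0.18 (adjusted p = 0.0941, edgeR). The call between the clones was lost without KO_1E7 1 (adjusted p = 0.0750) or KO_1E7 3 (adjusted p = 0.0990).

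Type I collagen, the main protein of scar and stroma, is a trimer of mostly 2 chains from Col1a1 and 1 from Col1a2. Per kilobase, Col1a1 exceeded Col1a2 by far more than that in 7 of the 9 libraries, KO_1E7 1 and KO_1E7 3 being the exceptions. The size of this excess depends on the gene model lengths, 6563 bases for Col1a1 and 12426 for Col1a2. Counts not divided by length gave ratios of 1.52, 11.7 and 2.02 in KO_1E7 and 48.2, 167 and 136.5 in CRISPR_1G2. In parental libraries they gave 64.7, 7.29 and 6.80. Col1a1 (chr11:94936224-94953042, plus strand) had 9.81, 10.2 and 3.31 CPM in KO_1E7, 15.8, 21.1 and 33.3 CPM in CRISPR_1G2 and 10.6, 9.06 and 12.5 CPM in parental libraries. It was lower in KO_1E7 than in CRISPR_1G2 by a log2 fold change of -1.59 ± 0.43 (SE, n = 3 each, adjusted p = 0.0449, edgeR), with no overlap between the clones, but no call remained when any 1 of the 9 libraries was left out (adjusted p from 0.0506 to 0.1). Col1a2 (chr6:4504814-4541544, plus strand) went the other way, with 6.47, 0.872 and 1.64 CPM in KO_1E7, 0.327, 0.126 and 0.244 CPM in CRISPR_1G2 and 0.164, 1.24 and 1.83 CPM in parental libraries. Its log2 fold change of KO_1E7 over CRISPR_1G2 was 3.67 ± 1.02 (SE, n = 3 each, adjusted p = 0.0482, edgeR), resting on 330 counts in the 3 KO_1E7 libraries against 21 in CRISPR_1G2. The call was lost without KO_1E7 1 or 3, any 1 CRISPR_1G2 library or parental 2 (adjusted p from 0.0678 to 0.168).

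KO_1E7 1 was the highest library for Col1a2 and, at 12.8 CPM, for Col3a1, the chain of type III collagen, whose other 8 libraries lay between 0.872 and 6.93 CPM. The same library held 21 of the counts of Dcn, 10 of Lum and 7 of Dpt, markers of fibroblasts, which had 0 or 1 counts in the other KO_1E7 libraries. The rest of the fibroblast and mesenchyme markers were mixed in KO_1E7 1. Fap and Pdpn had 0 counts there and Thy1 had 1. Acta2 had its lowest CPM of all libraries there and Pdgfrb its highest, while Pdgfra and Vim lay within the range of the other libraries. The summed level of the 10 fibroblast and mesenchyme markers, which is mostly Vim, was 1040 to 1949 CPM in KO_1E7, 608 to 2897 CPM in CRISPR_1G2 and 687 to 2608 CPM in parental libraries. Their part in the levels of Col1a2 and Col3a1 was not tested, and in bulk libraries more cells of a type and more RNA per cell cannot be told apart. Col3a1 itself did not pass the test between the clones (log2 fold change 0.65 ± 0.88, SE, n = 3 each, adjusted p = 0.673, edgeR).

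Col11a2 (chr17:34039437-34066685, plus strand), a cartilage fibril chain, had 0.763, 0.531 and 0.597 CPM in KO_1E7, 1.02, 2.27 and 31.9 CPM in CRISPR_1G2 and 1.86, 1.30 and 6.14 CPM in parental libraries. KO_1E7 lay below both other groups in every library, and the level in CRISPR_1G2 3 was far above all others. The fold change of KO_1E7 over CRISPR_1G2 was large but uncertain (log2 -4.22 ± 1.28, SE, n = 3 each, adjusted p = 0.0626, edgeR, and 0.00584 in DESeq2). The fibrillar chains Col2a1, Col5a2, Col5a3, Col11a1, Col24a1 and Col27a1 all averaged under 1 CPM over the 9 libraries, and of these 6 the 4 that were tested (Col5a2, Col5a3, Col11a1, Col24a1) did not pass in any contrast.

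The ubiquitous type IV pair, Col4a1 (chr8:11198423-11312826, minus strand) and Col4a2 (chr8:11312805-11449287, plus strand), encodes the chains of the common basement membrane network and sits head to head, its gene models overlapping by 22 bases at the start sequence printed above. Col4a1 had 264, 392 and 158 CPM in KO_1E7, 481, 588 and 191 CPM in CRISPR_1G2 and 443, 368 and 184 CPM in parental libraries. Col4a2 had 174, 306 and 105 CPM in KO_1E7, 413, 530.1 and 178 CPM in CRISPR_1G2 and 349, 280.4 and 150.4 CPM in parental libraries. Library 3 was the lowest of its group for both genes, and the groups overlapped. KO_1E7 over CRISPR_1G2 gave log2 fold changes of -0.63 ± 0.48 for Col4a1 (SE, n = 3 each, adjusted p = 0.430, edgeR) and -0.94 ± 0.50 for Col4a2 (adjusted p = 0.252, edgeR). With a term for the NSG libraries in the fit, Col4a2 passed (log2 fold change -0.91, adjusted p = 0.0199, edgeR).

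The ratio of the 2 chains moved much less than their levels. Per kilobase, Col4a1 stood at 1.35, 1.14 and 1.34 times Col4a2 in KO_1E7, at 1.03, 0.983 and 0.949 times in CRISPR_1G2 and at 1.13, 1.17 and 1.09 times in parental libraries. The highest ratio was 1.42 times the lowest, whereas the highest level was 3.71 times the lowest for Col4a1 and 5.05 times for Col4a2. All KO_1E7 ratios lay above all CRISPR_1G2 ratios, by 0.36 on the log2 scale (exact permutation test, two-sided, n = 3 each, p = 0.1, the smallest that 3 libraries against 3 can give). CRISPR_1G2 ratios lay below all parental ratios, by -0.19 on the log2 scale (exact permutation test, two-sided, p = 0.1).

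Col4a5 (chrX:141475385-141689234, plus strand), a chain of the specialised basement membranes of kidney, lung and other organs, had 58.7, 90.8 and 68.1 CPM in KO_1E7, 32.3, 47.0 and 43.4 CPM in CRISPR_1G2 and 39.3, 44.8 and 28.3 CPM in parental libraries. KO_1E7 libraries lay above all others, and the 2 other groups overlapped. The log2 fold change was 0.95 ± 0.23 over parental cells (SE, n = 3 each, adjusted p = 0.0519, edgeR) and 0.83 ± 0.23 over CRISPR_1G2 (adjusted p = 0.0510, edgeR), and DESeq2 called both (adjusted p = 0.00644 and 0.0198). Its head-to-head neighbour Col4a6, 1308 bases away, had 0.226 to 0.493 CPM in KO_1E7, 0.0726 to 0.336 CPM in CRISPR_1G2 and 0.110 to 0.191 CPM in parental libraries, and did not pass in any contrast. Of the remaining head-to-head pair, Col4a4 and Col4a3, Col4a4 had 2.29 to 5.43 CPM in KO_1E7, 0.908 to 2.87 CPM in CRISPR_1G2 and 1.08 to 4.56 CPM in parental libraries, whereas Col4a3 was below the filter with 67 counts in all.

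Of the other types, Col8a1 (chr16:57624258-57754737, minus strand), a short chain made by vascular and many other cells, had the smallest adjusted p of the chains between the clones. It had 49.5, 13.9 and 52.3 CPM in KO_1E7, 1.78, 2.68 and 1.77 CPM in CRISPR_1G2 and 9.84, 10.1 and 13.7 CPM in parental libraries. The 3 groups did not overlap, KO_1E7 lying above and CRISPR_1G2 below the parental libraries. KO_1E7 over CRISPR_1G2 gave a log2 fold change of 4.21 ± 0.50 (SE, n = 3 each, adjusted p = 0.00297, edgeR), an 18.5-fold difference that passed in all 9 leave-one-out fits. Against parental cells the log2 fold change was 1.78 ± 0.45 for KO_1E7 (adjusted p = 0.0552, edgeR, and 0.00149 in DESeq2) and -2.43 ± 0.47 for CRISPR_1G2 (adjusted p = 0.149, edgeR, and 4.83e-05 in DESeq2). Genes on chromosome 16 as a whole had a median log2 fold change of -0.52 between the clones, opposite in sign to Col8a1. For Col7a1 the median of chromosome 9 (0.17) was also opposite in sign. For the other called chains the median had the sign of the chain. It was -0.27 on chromosome 2 (Col5a1, Col9a3), 0.12 on 6 (Col1a2, Col28a1), -0.04 on 10 (Col18a1) and -0.28 on 11 (Col1a1). The part of whole chromosomes in these levels was not tested.

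Col7a1 (chr9:108953586-108984875, plus strand), which forms the fibrils that anchor epithelial basement membrane, had 7.35, 20.3 and 6.30 CPM in KO_1E7, 95.01, 99.4 and 34.3 CPM in CRISPR_1G2 and 21.8, 21.6 and 19.3 CPM in parental libraries. CRISPR_1G2 lay above both other groups in every library, while KO_1E7 2 lay among the parental libraries. The log2 fold change of KO_1E7 over CRISPR_1G2 was -2.75 ± 0.53 (SE, n = 3 each, adjusted p = 0.0139, edgeR). The call was lost without KO_1E7 1 (adjusted p = 0.0686) or KO_1E7 3 (adjusted p = 0.0657). CRISPR_1G2 over parental cells gave 1.87 ± 0.51 (adjusted p = 0.369, edgeR, and 0.0229 in DESeq2).

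Col18a1 (chr10:77052178-77166548, minus strand), the basement membrane chain from which endostatin is cut, had 134, 275 and 158 CPM in KO_1E7, 404, 535 and 348 CPM in CRISPR_1G2 and 379, 335 and 322 CPM in parental libraries. Each KO_1E7 library was below every other library. The log2 fold change was -1.18 ± 0.28 over CRISPR_1G2 (SE, n = 3 each, adjusted p = 0.0266, edgeR) and -0.87 ± 0.27 over parental cells (adjusted p = 0.0982, edgeR, and 0.0489 in DESeq2). The call between the clones was lost without KO_1E7 1, KO_1E7 3, CRISPR_1G2 1 or CRISPR_1G2 2 (adjusted p from 0.0635 to 0.125). An antisense gene, Slc19a1, overlaps it with 14797 counts against 101552 for Col18a1, and without strand the reads of the overlap cannot be told apart.

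The type VI chains Col6a1 (chr10:76708792-76726168, minus strand) and Col6a2 (chr10:76595762-76623630, minus strand), parts of the beaded filaments that surround many cells, had their highest mean in KO_1E7. Col6a1 had 152, 147 and 120 CPM in KO_1E7, 51.0, 107 and 30.7 CPM in CRISPR_1G2 and 42.5, 48.6 and 19.4 CPM in parental libraries. Col6a2 had 55.9, 47.8 and 34.9 CPM in KO_1E7, 24.04, 59.3 and 21.3 CPM in CRISPR_1G2 and 19.2, 17.9 and 9.42 CPM in parental libraries. KO_1E7 and parental libraries did not overlap for either gene, and for Col6a2 the level in CRISPR_1G2 2 was above those of all KO_1E7 libraries. Over parental cells the log2 fold change in KO_1E7 was 1.92 ± 0.47 for Col6a1 (SE, n = 3 each, adjusted p = 0.0516, edgeR, and 0.000895 in DESeq2) and 1.58 ± 0.43 for Col6a2 (adjusted p = 0.0682, edgeR, and 0.00505 in DESeq2). Col6a3, which completes the type VI trimer, had 1.43 to 4.32 CPM in KO_1E7, 2.65 to 12.1 CPM in CRISPR_1G2 and 1.33 to 2.98 CPM in parental libraries, and passed in no contrast. Per kilobase, Col6a1 stood at 5.17, 5.86 and 6.53 times Col6a2 in KO_1E7, at 4.03, 3.43 and 2.73 times in CRISPR_1G2 and at 4.20, 5.17 and 3.91 times in parental libraries, with no overlap between the clones (difference 0.80 on the log2 scale, exact permutation test, two-sided, n = 3 each, p = 0.1). The size of these ratios, though not the difference between groups, depends on gene model lengths of 4380 bases for Col6a1 and 8326 for Col6a2. Counts not divided by length gave 1.44 to 3.44 times over all libraries.

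**Figure D3:**
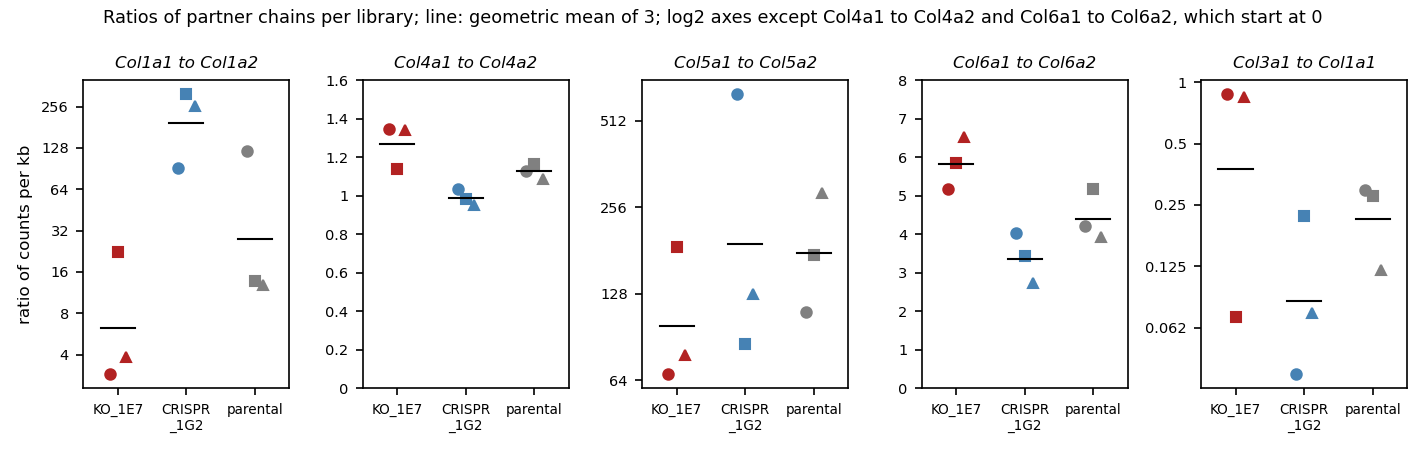
Ratios of counts per kilobase between chains in each library (vertical axes; log2 scale for 3 panels, from 0 for Col4a1 to Col4a2 and Col6a1 to Col6a2), with groups on the horizontal axes and the geometric mean of 3 libraries as a line. Col4a1 to Col4a2 keeps between 0.949 and 1.35 in all libraries, whereas Col1a1 to Col1a2 spans 2.87 to 317.

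The other partner chains kept no such narrow ratio. Col1a1 stood per kilobase at 2.87, 22.2 and 3.82 times Col1a2 in KO_1E7, at 91.3, 317 and 258 times in CRISPR_1G2 and at 122, 13.8 and 12.9 times in parental libraries. The clones did not overlap in this ratio (difference -4.97 on the log2 scale, exact permutation test, two-sided, n = 3 each, p = 0.1). Col5a1 exceeded Col5a2, its usual partner in type V collagen, by 67.0 to 185 times in KO_1E7, 85.4 to 633 times in CRISPR_1G2 and 110 to 287 times in parental libraries, with overlap between all groups. The highest of these ratios rest on few counts. Col1a2 had 9, 4 and 8 counts in CRISPR_1G2 libraries and 6 in parental 1, and Col5a2 had 5 in CRISPR_1G2 1. The part of counting error in their spread was not tested. Over the 5 pairs and 3 contrasts that were compared, 15 tests in all, none can pass 0.05 with 3 libraries a group, so the values per library are the result.

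Fewer counts lay behind the remaining called chains. Col28a1 (chr6:7997808-8192617, minus strand), a chain known mainly from peripheral nerve, had 0.876, 0.853 and 1.43 CPM in KO_1E7, 0, 0.126 and 0.122 CPM in CRISPR_1G2 and 0.273, 0.331 and 0.222 CPM in parental libraries. The 3 groups did not overlap, with 124 pooled counts in KO_1E7, 8 in CRISPR_1G2 and 30 in parental libraries. The ratio of the pooled counts of KO_1E7 to CRISPR_1G2, scaled for depth, was 11.7 (95% exact interval 5.77 to 27.8, counting error only), and the test gave adjusted p = 0.0125 in edgeR, or 0.0617 without KO_1E7 3. Col9a3 (chr2:180597790-180622189, plus strand), a chain of the cartilage collagen that coats type II fibrils, had 0.113, 0.114 and 0.0895 CPM in KO_1E7, 0.400, 0.851 and 3.24 CPM in CRISPR_1G2 and 0.519, 0.304 and 1.75 CPM in parental libraries. All KO_1E7 libraries lay below all others, and the log2 fold change of KO_1E7 over CRISPR_1G2 was -3.78 ± 0.97 (SE, n = 3 each, adjusted p = 0.0372, edgeR), on 13 counts in KO_1E7 against 144 in CRISPR_1G2. The call was lost without any 1 KO_1E7 library, CRISPR_1G2 2 or 3, or parental 1 (adjusted p from 0.0576 to 0.141).

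**Figure D4:**
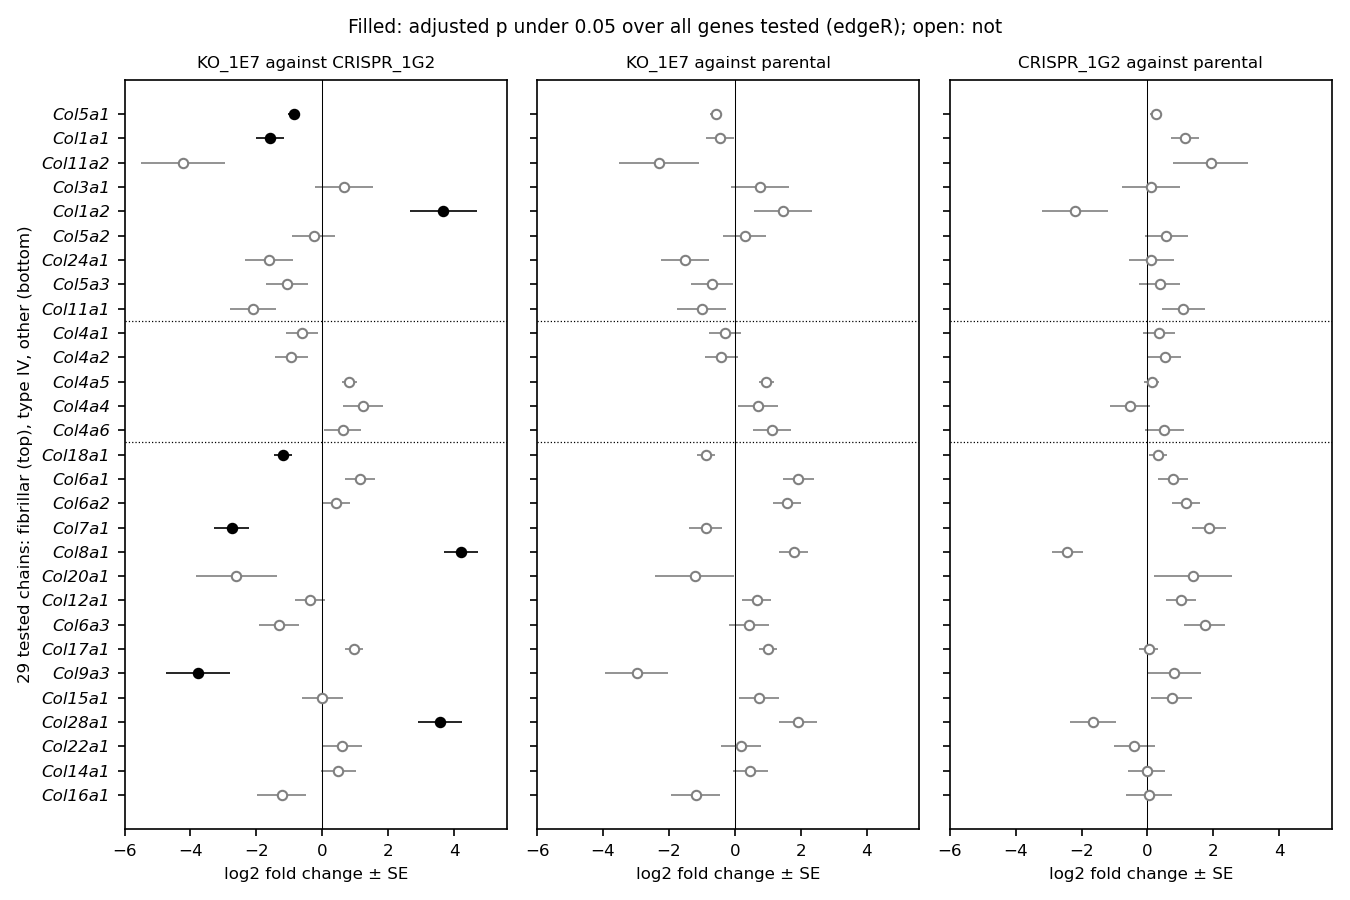
Log2 fold changes with their standard errors (horizontal axes) for the 29 tested chains, fibrillar at the top, type IV in the middle and others at the bottom, in the 3 contrasts. Filled points mark the 8 chains with an adjusted p under 0.05 between KO_1E7 and CRISPR_1G2, and no point is filled in either contrast with parental cells.

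Against parental cells, no chain passed in either clone in edgeR. For KO_1E7 against parental cells the count was 0 of 29, where 5.42% of all genes tested passed, and 9 chains (31.0%) had an unadjusted p under 0.05, beside 23.7% of all genes. DESeq2 called 9 of 34 chains there (26.5%, beside 11.1% of all genes), 7 higher (Col6a1, Col8a1, Col6a2, Col4a5, Col28a1, Col17a1, Col25a1) and 2 lower (Col9a3, Col18a1). Leaving out CRISPR_1G2 3, which is in neither of these groups but enters the filter, the scaling and the shared estimate of spread, moved the edgeR count to 9, among them Col25a1, which was below the filter with all libraries. In the same fit the count over all genes rose from 854 to 1998. The libraries did not overlap for 12 of 29 chains (41.4%, beside 34.4% of all genes). The median log2 fold change of the chains was 0.30, beside -0.03 over all genes, and by family it was -0.59 for 9 fibrillar chains, 0.71 for 5 type IV chains and 0.47 for 15 others. The type IV median was the value of Col4a4. Of the type IV estimates 3 were above 0 and 2 below. The 2 below were those of the most abundant type IV chains, Col4a1 (-0.291 ± 0.483, SE, n = 3 each) and Col4a2 (-0.415 ± 0.496).

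For CRISPR_1G2 against parental cells the count was also 0 of 29, where 0.254% of all genes passed. There 6 chains (20.7%) had an unadjusted p under 0.05, beside 7.73% of all genes, and DESeq2 called 2 of 36, Col7a1 higher and Col8a1 lower (0.841% of all genes). Libraries did not overlap for 5 chains (17.2%, beside 13.1% of all genes). The median log2 fold change was 0.37, beside 0.02 over all genes, and 23 of the 29 estimates were above 0. A test of any difference among the 3 groups called Col8a1, Col28a1, Col7a1 and Col5a1 in edgeR (13.8% of 29, beside 8.54% of all genes) and 15 of 34 chains in DESeq2 (15.5% of all genes). The contrasts share libraries, so a chain that appears in more than 1 of them is not counted as repeated evidence.

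Several chains lay apart in the NSG libraries within groups, although none passed the edgeR test for it. In a fit of group plus a term for the NSG libraries, edgeR called 0 of 29 chains and 0% of all genes, but 12 chains (41.4%) had an unadjusted p under 0.05, beside 33.3% of all genes, and DESeq2 called 11 (37.9%, beside 18.4%). Col4a1 and Col4a2 had lower estimates in NSG libraries, with log2 differences of -1.22 ± 0.17 and -1.22 ± 0.20 (SE over the 9 libraries, adjusted p = 0.0773 for both in edgeR, 8.39e-09 and 1.61e-06 in DESeq2). Leaving out KO_1E7 3 moved the edgeR count to 13 chains, and leaving out KO_1E7 1 moved it to 5. The share of all genes called in these fits was not computed, so whether the counts are particular to collagen was not tested. Col11a2, Col20a1 and Col9a3 had higher estimates in NSG libraries, by 2.45 ± 0.68, 2.48 ± 0.78 and 1.79 ± 0.45 on the log2 scale, but not in KO_1E7, where library 3 did not exceed both others for any of the 3.

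**Figure D5:**
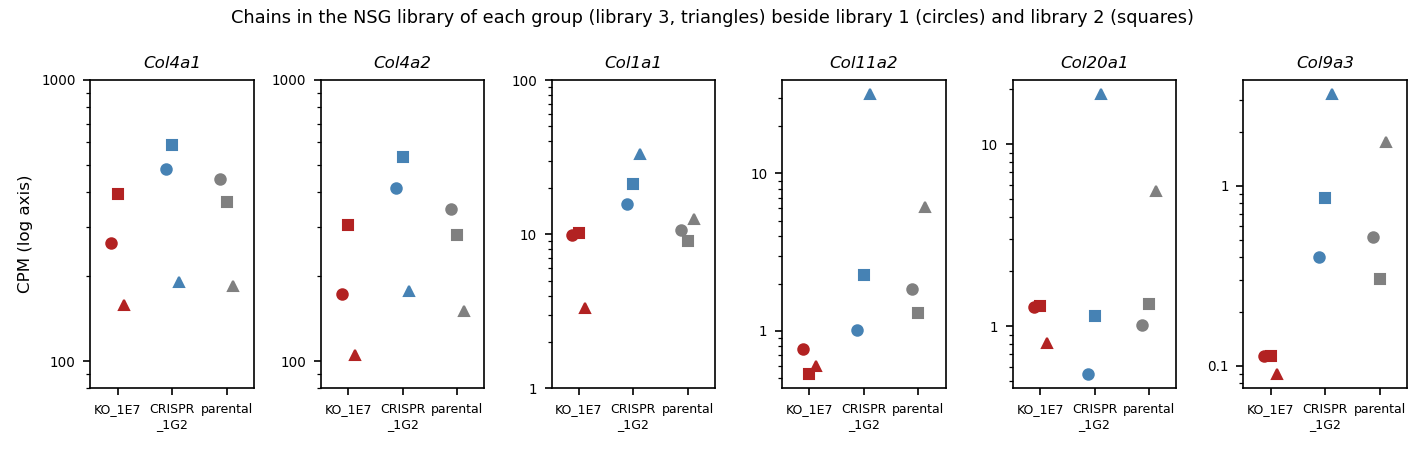
CPM (log axes) of 6 collagen chains in every library, with groups on the horizontal axes and triangles for NSG libraries. Triangles lie lowest for Col4a1 and Col4a2 in every group, and highest for Col11a2, Col20a1 and Col9a3 in CRISPR_1G2 and parental cells but not in KO_1E7.

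Col20a1 (chr2:180986535-181017540, plus strand), a chain associated with fibrils, had 1.27, 1.29 and 0.806 CPM in KO_1E7, 0.545, 1.14 and 18.9 CPM in CRISPR_1G2 and 1.01, 1.33 and 5.53 CPM in parental libraries. Groups overlapped, and the 2 highest values were NSG libraries. Its direction between the clones was set by CRISPR_1G2 3: the log2 fold change of KO_1E7 over CRISPR_1G2 was -2.60 ± 1.24 with all libraries (SE, n = 3 each, adjusted p = 0.202, edgeR) and 0.43 without that library. A gene on the same strand, 9230112E08Rik, overlaps it with 2172 counts against 1093 for Col20a1, so its counts are uncertain.

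Genes that act on collagen moved in both directions, and 4 lists of them are given as counts, beside all genes tested, of which 5.42% passed for KO_1E7 against parental cells, 12.7% between the clones and 0.254% for CRISPR_1G2 against parental cells. For folding and hydroxylation of chains, 3 of 22 tested were higher in KO_1E7 than in parental cells and 2 were lower (22.7% in all), and against CRISPR_1G2 the counts were likewise 3 and 2. In CRISPR_1G2 against parental cells 0 were higher and 1 was lower (4.55%). That gene was Fkbp10, a collagen chaperone of the endoplasmic reticulum, with 0.452, 0.303 and 0.358 CPM in KO_1E7, 0.291, 0.567 and 0.611 CPM in CRISPR_1G2 and 15.3, 16.1 and 10.4 CPM in parental libraries. Both clones lay far below the parental libraries, with log2 fold changes of -5.22 ± 0.36 for KO_1E7 (SE, n = 3 each, adjusted p = 0.00105, edgeR) and -4.81 ± 0.36 for CRISPR_1G2 (adjusted p = 0.000730, edgeR). P3h4, a partner of lysyl hydroxylase in that compartment, was lower in KO_1E7 at 0.989, 2.77 and 0.478 CPM, against 8.06, 8.20 and 7.21 CPM in CRISPR_1G2 and 10.7, 8.53 and 6.67 CPM in parental libraries (log2 fold change over parental cells -2.59 ± 0.54, adjusted p = 0.0344, edgeR). Fkbp14, another chaperone of that compartment, was higher in KO_1E7 at 15.8, 12.3 and 14.9 CPM, against 6.65, 8.83 and 8.03 CPM in CRISPR_1G2 and 5.52, 7.18 and 3.59 CPM in parental libraries (log2 fold change over parental cells 1.40 ± 0.27, adjusted p = 0.0266, edgeR). Plod1, a lysyl hydroxylase, had 58.2, 48.3 and 48.7 CPM in KO_1E7, 27.6, 31.6 and 27.4 CPM in CRISPR_1G2 and 32.5, 34.0 and 27.9 CPM in parental libraries. It was higher in KO_1E7 than in either other group, as was its relative Plod3, with a log2 fold change of 0.84 ± 0.14 over CRISPR_1G2 for Plod1 (adjusted p = 0.00810, edgeR). P3h2, a prolyl hydroxylase, had 20.5, 13.5 and 19.5 CPM in KO_1E7, 36.0, 30.9 and 62.6 CPM in CRISPR_1G2 and 44.4, 28.1 and 50.8 CPM in parental libraries, and was lower in KO_1E7 than in CRISPR_1G2 (log2 fold change -1.28 ± 0.32, adjusted p = 0.0353, edgeR).

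For propeptide removal, cross-linking and fibril assembly, 3 of 16 tested genes were higher in KO_1E7 than in parental cells and 0 lower (18.8% in all), 5 were higher than in CRISPR_1G2 and 0 lower (31.3%), and 2 were lower in CRISPR_1G2 than in parental cells (12.5%). Thbs2, a thrombospondin needed for normal collagen fibrils in mice, had 2756, 3399 and 2658 CPM in KO_1E7, 9.99, 11.8 and 5.44 CPM in CRISPR_1G2 and 289, 281 and 347 CPM in parental libraries. Bgn, the proteoglycan biglycan that binds fibrils, had 441, 153 and 310 CPM in KO_1E7, 7.34, 9.68 and 7.42 CPM in CRISPR_1G2 and 46.1, 57.0 and 40.7 CPM in parental libraries. For both genes all 3 groups were apart, in the order shown by Col8a1 and Col28a1. Sparc, which binds collagen in the matrix, had 311, 285 and 323 CPM in KO_1E7, 140, 134 and 135 CPM in CRISPR_1G2 and 171, 178 and 165 CPM in parental libraries (log2 fold change of KO_1E7 over parental cells 0.84 ± 0.11, adjusted p = 0.00939, edgeR). Adamts14, a protease that removes procollagen propeptides, was lowest in CRISPR_1G2, with 1.07, 0.625 and 1.19 CPM in KO_1E7, 0.0726, 0 and 0.183 CPM in CRISPR_1G2 and 0.383, 0.193 and 0.806 CPM in parental libraries (adjusted p between the clones = 0.0339, edgeR).

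Of 9 tested collagen receptors and uptake genes, 1 was lower in KO_1E7 than in parental cells (11.1%) and 2 were lower than in CRISPR_1G2 (22.2%). Itga2, the alpha subunit of a collagen-binding integrin, had 0.254, 0.322 and 0.239 CPM in KO_1E7, 3.09, 4.10 and 2.75 CPM in CRISPR_1G2 and 1.04, 1.13 and 2.64 CPM in parental libraries. KO_1E7 lay below both groups, by a log2 fold change of -2.53 ± 0.44 against parental cells (SE, n = 3 each, adjusted p = 0.0191, edgeR). Adgrg1, an adhesion receptor for type III collagen, had 0.0848, 0.246 and 0.388 CPM in KO_1E7, 0.944, 1.01 and 2.20 CPM in CRISPR_1G2 and 0.929, 0.663 and 1.17 CPM in parental libraries, and was lower in KO_1E7 than in CRISPR_1G2 (log2 fold change -2.52 ± 0.57, adjusted p = 0.0240, edgeR). Of 5 tested collagen-cleaving proteases, 0 passed in any of the 3 contrasts in edgeR, 0 had an unadjusted p under 0.05, and DESeq2 called 0 of 6. The median log2 fold changes of KO_1E7 over parental cells were 0.42 for folding, 0.52 for assembly, -0.20 for receptors and 0.27 for proteases, beside -0.03 over all genes tested.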

How the data were processed

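Gene counts for 9 libraries, deposited by the authors as whole-number read counts per gene without normalization, were used as given. Per the submitters' processing notes, bcl2fastq 2.17, STAR 2.5.2b, featureCounts (Subread 1.5.2), DESeq2 and GRCm38 were used. The annotation release and strand setting are not given in the sources used here, and per the labels' protocols the libraries were made from oligo(dT)-enriched RNA with a kit that does not mark strand. Counts of the sample files and the series table did not differ.

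Spike-ins (0.344 to 0.82% of counts) were left out. Genes were kept with edgeR 4.0.16 filterByExpr and fitted over all 9 libraries with TMM scaling and the robust quasi-likelihood F-test. P-values were adjusted (Benjamini-Hochberg) over all 15766 genes tested, with a threshold of 0.05. The SE of a log2 fold change was its absolute value divided by the square root of the F statistic. It therefore restates the test, with a spread estimated over all 9 libraries, and is not a separate measure of spread within the 2 groups. The code was tested on simulated data. CPM uses TMM-scaled library sizes. Intervals cover counting error only. The same fit gave a test of any difference among the 3 groups. Another fit added a term for the NSG libraries, and a further one gave each group its own NSG effect (chosen after seeing the data). Same-numbered CRISPR_1G2 and parental libraries deviated together from their group means in all 3 pairs (correlations 0.243 to 0.647). However, CRISPR_1G2 1 correlated more with parental 2 (0.54), whose header string it shares, and CRISPR_1G2 2 also correlated with parental 1 (0.136). The NSG library of either group correlated negatively with libraries 1 and 2 of the other (-0.234 to -0.614). These correlations therefore do not show that the numbers pair libraries 1 and 2. Ratios of chains were compared by exact permutation tests in scipy 1.17.1. Libraries of a group differed beyond sampling noise (chi-square per gene 8.84 to 765), so each was counted as 1 sample.

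Named are the 12 chains with the highest mean CPM per kilobase and every chain called in a contrast, 15 in all. From each list of partner genes, at most 3 called genes were named per contrast, those with the largest fold changes. Members and lists were chosen with earlier results of these data known. Alternatives were DESeq2 1.42.0, other size factors and filters, only the groups compared, a replicate block, the NSG term, a header term (added after seeing the data), and leaving out libraries. Coordinates are GRCm38 as in the deposited tables.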

Additional observations from a re-analysis of the deposited data

Results flagged for a closer look

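For 3 chains the NSG library (library 3) departed from the other 2 libraries differently in KO_1E7 and CRISPR_1G2, by a test of that difference in edgeR. Each effect rests on 1 NSG library per group, and the test was chosen after seeing the data. The 3 chains were 10.3% of the 29 tested, no more than the 10.8% of all genes tested that passed, so their number is at the background.

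Col20a1 had an NSG effect of -0.67 in KO_1E7 and 4.47 in CRISPR_1G2 on the log2 scale, a difference of -5.14 ± 0.65 (SE, adjusted p = 0.0130). Its level was the lowest of the group in KO_1E7 3 and the highest of all libraries in CRISPR_1G2 3.

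Col11a2 had effects of -0.10 in KO_1E7 and 4.27 in CRISPR_1G2, a difference of -4.36 ± 0.75 (SE, adjusted p = 0.0210).

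Col1a1 had effects of -1.60 in KO_1E7 and 0.86 in CRISPR_1G2, a difference of -2.45 ± 0.33 (SE, adjusted p = 0.0131). The summed pericyte and smooth muscle markers, mostly Mcam, were 15.9 CPM in KO_1E7 3 and 41.5 CPM in CRISPR_1G2 3, against 9.51 and 22.2 CPM in the other KO_1E7 libraries and 7.01 and 9.52 CPM in the other CRISPR_1G2 libraries. Their part in the levels of these chains was not tested.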

How the results depend on the processing

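The number of collagen chains called was small and moved with the fit. For KO_1E7 against parental cells, 0 chains in edgeR became 9 in DESeq2, 1 with no filter on low counts, 2 with at least 1 CPM in 3 libraries, 3 with only the 2 groups compared, 7 with a term for the NSG libraries, 2 without NSG libraries, 9 without parental 3 and CRISPR_1G2 3, and 12 without KO_1E7 2 as well. Between the clones the count of 8 became 15 with the NSG term. For CRISPR_1G2 against parental cells it became 2 in DESeq2 and 2 without parental 3, CRISPR_1G2 3 and KO_1E7 2. For any difference, 4 became 15 in DESeq2, 11 with the NSG term, and 12 without parental 3 and CRISPR_1G2 3, with or without KO_1E7 2. For the NSG libraries against the rest, 0 became 11 in DESeq2.

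Leaving out 1 library gave 0 to 9 chains for KO_1E7 against parental cells, 1 to 9 between the clones, 0 to 1 for CRISPR_1G2 against parental cells, 1 to 8 for any difference and 0 to 13 for the NSG libraries. For the NSG libraries no such range over all genes was computed. Over all genes the counts of 854, 2010, 40 and 1347 (KO_1E7 against parental, between the clones, CRISPR_1G2 against parental, any difference) spanned 24 to 1998, 453 to 2332, 15 to 71 and 126 to 1983. In DESeq2 they were 2036, 3068, 174 and 2926. The NSG term gave 2060, 3330 and 2676 (KO_1E7 against parental, between the clones, any difference), and leaving out NSG libraries gave 1737, 3111 and 2292. Without parental 3 and CRISPR_1G2 3 these 3 were 3330, 4615 and 4261, and without KO_1E7 2 as well 4423, 5557 and 5263, with 326 for CRISPR_1G2 against parental. For KO_1E7 against parental, no filter gave 546, at least 1 CPM in 3 libraries gave 987 and the 2 groups alone gave 879. The 2 groups alone gave 16 for CRISPR_1G2 against parental.

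Same-numbered libraries of KO_1E7 deviated together in only 1 of 3 pairs with CRISPR_1G2 (correlations from -0.0497 to 0.127) and 1 of 3 with parental cells (-0.00342 to 0.153), so the numbers do not pair KO_1E7 with either. With a replicate block, 4 chains were called for KO_1E7 against parental cells (1298 genes), 9 between the clones (2614 genes) and 9 for any difference (1812 genes). The block changed no call of a chain for CRISPR_1G2 against parental cells (0 chains, 37 genes). A term for the header text, chosen after seeing the data, gave 6 chains (1855 genes) for KO_1E7 against parental cells. It gave 1 chain, Col8a1, for CRISPR_1G2 against parental cells (33 genes).

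Among the 15 named chains, signs turned for 7 fold changes. The other tested chains were not checked for this. Col20a1 became 0.62, 0.42 and 0.30 between the clones without NSG libraries, without parental 3 and CRISPR_1G2 3, and without KO_1E7 2 as well, and 0.43 without CRISPR_1G2 3 alone. In CRISPR_1G2 over parental cells, Col20a1 became -0.47, -0.47, -0.46 and -1.63 under the same 4 settings. Col4a5 became -0.090, -0.089 and -0.083 under the first 3 settings, -0.043 without parental 3 and -0.021 when centred on its chromosome. Without NSG libraries, KO_1E7 over parental cells gave 0.039 for Col1a1 and 0.14 for Col20a1. Without CRISPR_1G2 3, CRISPR_1G2 over parental cells gave -0.91 for Col11a2 and -0.44 for Col9a3. Leaving out 1 library spanned -3.14 to 0.43 for Col20a1 between the clones and, in CRISPR_1G2 over parental cells, -1.63 to 2.56 for Col20a1, -0.043 to 0.28 for Col4a5, -0.91 to 2.90 for Col11a2 and -0.44 to 1.86 for Col9a3. The cause was not tested.

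Leaving out 1 library moved the log2 ratio of Col5a1 to Col5a2 in CRISPR_1G2 against parental cells between -0.76 and 0.69, including -0.23 without parental 1.

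Depth limits the 15 untested chains, and 3 libraries a group limit every fold change.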
